A study of Mus musculus with 16 samples.

Results

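The radiation response of myeloid progenitors without Parp-2 was measured on 4 of the 16 arrays of the series: 2 arrays of irradiated Parp-2-/- cells and 2 arrays of unirradiated Parp-2-/- cells, chosen by their labels. Myeloid progenitors (MP cells) are bone marrow cells sorted as lineage-negative, Sca1-negative and c-Kit-positive. The irradiated cells were taken 2.5 hours after 5 Gy of gamma radiation. Every array held RNA from 1 pool of at least 3 mice of the C57BL/6J background. The other arrays of the series held MP cells of wild-type (WT) mice, irradiated and unirradiated, and LSK cells of both genotypes and both states, a fraction that differs from MP cells in carrying Sca1 and that holds the stem cells. Each of the 8 groups had 2 pools. Both Parp-2-/- groups carried the same genotype label, and the sources used here do not say how the allele was made. The comparison asks which genes moved in these cells after irradiation. It was set beside the response of WT MP cells and of Parp-2-/- LSK cells, which share no array with it.

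Parp-2 is a nuclear enzyme that binds DNA breaks and builds chains of ADP-ribose on itself and on nearby proteins, which recruits repair factors. Ionising radiation breaks both strands of DNA, the kinase ATM is activated, and the transcription factor p53 is stabilised. p53 then switches on genes for its own restraint, for cell cycle arrest, for repair and for cell death, while genes of mitosis are usually turned down in arrested cells. In blood-forming cells this programme decides between survival and apoptosis, and mice without Parp-2 are known to be sensitive to ionising radiation.

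The values are log2 levels from robust multi-array averaging (RMA) on Mouse Gene 1.0 ST arrays. The medians of the 4 arrays lay between 4.74 and 4.80, and pools of a group correlated at 0.991 in both the irradiated and the unirradiated Parp-2-/- cells, across all rows. A level below its array's median was taken as not shown above background. Where both pools of a group lay there, the change is a lower bound, and where 1 pool did, that is said beside the change of the genes given in full. The targeted gene checks the labels: Parp2 read 6.75 and 6.76 in irradiated and 6.74 and 7.11 in unirradiated Parp-2-/- MP cells, against 8.40 and 8.36 in irradiated and 8.40 and 7.98 in unirradiated WT MP cells. Every Parp-2-/- array lay below every WT array, and the mean difference of Parp-2-/- minus WT was -1.44 log2 units. The files do not say which probes lie in the deleted part, so what the remaining signal measures was not resolved. The sort marker Kit read 8.62 to 9.04 on the 4 arrays, and the myeloid enzyme gene Mpo read 11.63 to 11.84. The lists of B lymphocyte, T and NK lymphocyte and mature neutrophil markers had mean levels of 3.88 to 4.11, 3.64 to 3.76 and 4.16 to 4.34 on the same arrays, below the array medians. Sca1 (Ly6a) was not on a row with that symbol alone and is not analysed here.

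After irradiation, 365 of 22961 tested rows were called in Parp-2-/- MP cells at an adjusted p under 0.05 in limma, which is 1.59% of the rows. Of these, 265 were higher (1.15%) and 100 were lower (0.436%) in irradiated cells. A change of at least 2-fold was seen for 168 of the rows called higher (0.732%) and 40 of the rows called lower (0.174%). Over all tested rows the median change was -0.01 log2 units, and in 3966 rows (17.3%) both irradiated pools lay above both unirradiated pools. The share of rows apart in the other direction was not counted. All 353 called rows with 1 symbol had groups that did not overlap, so a lack of overlap adds nothing to a call. The counts of called list members below are to be read against the 1.59% of all rows. The precision is limited by the number of arrays: the median standard error was 0.15 log2 units, and the smallest change called was 0.61. The count was 136 without irradiated pool 1, 116 without irradiated pool 2, 167 without unirradiated pool 1 and 162 without unirradiated pool 2. These are bulk cells, so fewer cells of a type and less RNA per cell cannot be told apart, and the p-values measure the spread between pools.

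**Figure D1:**
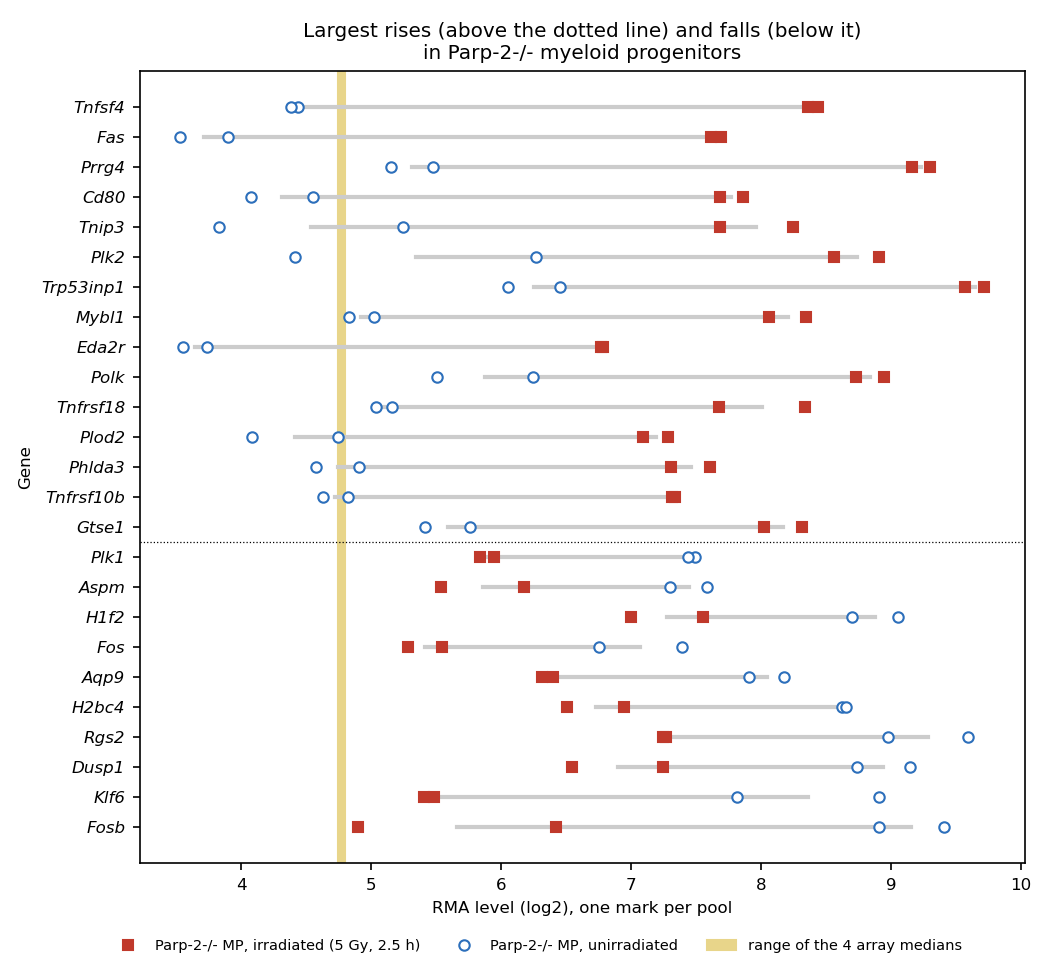
RMA levels (log2, horizontal axis) of the 15 largest rises and 10 largest falls in each Parp-2-/- MP pool; red squares are irradiated pools, open blue circles unirradiated pools, grey bars join the group means and the yellow band is the range of the 4 array medians. The 25 genes were chosen among those whose groups do not overlap, and the unirradiated levels of Tnfsf4, Fas, Cd80, Eda2r and Plod2 lie below the median of their arrays.

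Genes that restrain p53 or halt the cell cycle were among the rises. Of 31 measured genes of the feedback and arrest list, 15 rose and 0 fell (48.4% called, against 1.59% of all rows), and the list's median change was 0.89 log2 units. Trp53inp1, a nuclear protein induced by p53, read 9.72 and 9.57 in irradiated cells and 6.45 and 6.05 in unirradiated cells. It rose by 3.39 ± 0.15 (SE, adjusted p = 2.56e-05). Plk2, a polo-like kinase of the stress response, read 8.56 and 8.91 in irradiated cells against 6.26 and 4.42 in unirradiated cells. The unirradiated pools lay far apart, with pool 2 below its array median, and the change of 3.40 carried a standard error of 0.50 (adjusted p = 0.0125). Phlda3, a repressor of the survival kinase AKT, read 7.31 and 7.61 in irradiated cells against 4.91 and 4.58 in unirradiated cells, and rose by 2.72 ± 0.25 (adjusted p = 0.00113), with unirradiated pool 2 below its array median. Gtse1, a microtubule-binding protein that moves p53 out of the nucleus, read 8.02 and 8.31 in irradiated cells against 5.42 and 5.76 in unirradiated cells and rose by 2.58 ± 0.18 (adjusted p = 0.000249).

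The core of the feedback loop moved with them. Mdm2, the ubiquitin ligase that degrades p53, read 9.97 and 10.03 in irradiated cells against 7.75 and 7.80 in unirradiated cells and rose by 2.22 ± 0.14 (adjusted p = 0.000157). Its partner Mdm4 rose by 1.60 ± 0.15 and Ppm1d, the phosphatase that reverses ATM signalling, by 1.27 ± 0.19. Ccng1, an atypical cyclin that acts on Mdm2, read 10.91 and 10.71 in irradiated cells against an already high 9.01 and 9.46 in unirradiated cells, a rise of 1.57 ± 0.19 (adjusted p = 0.00434). Zmat3, an RNA-binding protein, and Ddit4l, an inhibitor of mTOR signalling, rose by 1.94 ± 0.22 and 1.86 ± 0.17; unirradiated Zmat3 lay below the array medians, so its change is a lower bound. Sesn2, a stress-induced regulator of nutrient signalling, read 6.52 and 6.82 in irradiated cells against 5.15 in both unirradiated pools (1.52 ± 0.17, adjusted p = 0.0029). The remaining members called were Ptp4a3 (1.10), Ak1 (1.03), Tob1 (0.999) and Pml (0.89). Btg2, an antiproliferative gene, read 8.12 and 9.06 in irradiated cells against 8.12 and 7.22 in unirradiated cells, which touch, and was not called (0.92 ± 0.37, adjusted p = 0.37). Cdkn1a and Bax were not on a row with that symbol alone, so neither was analysed as a single gene or counted in a list. The tested row that Cdkn1a shares with 4930567H12Rik rose by 2.94 (adjusted p = 0.016 in limma), and its signal cannot be assigned to 1 of them. Without irradiated pool 1 or pool 2 the count of rises in the list was 9, without unirradiated pool 2 it was 10, and Plk2 lost its call without irradiated pool 1 (adjusted p = 0.0781) or pool 2 (adjusted p = 0.113).

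The p53 half-site, the decamer of which a full p53 response element holds a pair, was searched on both strands in promoter windows from 250 bases before to 50 bases after the annotated start (RefSeq, GRCm38.p6). Of the 27 genes that rose in the p53 lists for feedback, repair and apoptosis, 21 had a window and 8 of these held a match (38.1%), against 16 of 51 measured members with a window (31.4%) and 9.55% of 27025 genes. Of all genes called higher, 24 of 195 with a window held a match (12.3%), against 1336 of 15613 tested genes with a window (8.56%). The differences between these shares were not tested. A match is a description of the letters and not a bound site. In 7 of the 8 a match lies before the start, and the stretches around it are shown for the 5 of these with the largest rise, with the match in capitals: Polk at chr13:96519379-96519437 on the minus strand, Mdm2 at chr10:117710905-117710974 on the minus strand, Ddit4l at chr3:137623552-137623621 on the plus strand, Ei24 at chr9:36797335-36797374 on the minus strand and Ccng1 at chr11:40755432-40755501 on the minus strand. The Polk match belongs to 1 of its annotated starts.
Polk: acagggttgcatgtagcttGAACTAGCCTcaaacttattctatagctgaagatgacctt
Mdm2: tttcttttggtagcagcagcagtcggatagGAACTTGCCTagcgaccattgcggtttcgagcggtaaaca
Ddit4l: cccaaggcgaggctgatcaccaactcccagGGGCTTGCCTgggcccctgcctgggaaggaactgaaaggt
Ei24: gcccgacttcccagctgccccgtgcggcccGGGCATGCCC
Ccng1: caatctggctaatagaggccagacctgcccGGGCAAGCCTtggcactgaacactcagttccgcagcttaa

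Death receptor and apoptosome genes were among the rises too. Of 18 measured p53 targets in apoptosis, 8 rose and 0 fell, with a median of 0.38. Fas, the death receptor for Fas ligand, read 7.69 and 7.62 in irradiated cells against 3.90 and 3.53 in unirradiated cells. The unirradiated pools lay below their array medians, so the change of 3.94 ± 0.24 (adjusted p = 0.000157) is a lower bound. Eda2r, a receptor of the TNF receptor family that binds ectodysplasin A2, read 6.77 and 6.78 in irradiated cells against 3.55 and 3.73 in unirradiated cells and rose by at least 3.13 ± 0.33 (adjusted p = 0.00225). Tnfrsf10b, the mouse receptor for the death ligand TRAIL, read 7.34 and 7.31 in irradiated cells against 4.63 and 4.82 in unirradiated cells and rose by 2.60 ± 0.16 (adjusted p = 0.000157), with unirradiated pool 1 below its array median. All 3 receptors showed near-equal levels in the irradiated pools. Ei24, a membrane protein of the endoplasmic reticulum, read 10.16 and 10.04 in irradiated cells against 8.30 and 8.32 in unirradiated cells and rose by 1.79 ± 0.12 (adjusted p = 0.000272). Apaf1, the scaffold of the apoptosome, rose by 1.68 ± 0.13, Pidd1, an activator of caspase-2, by 1.51 ± 0.18, and Pmaip1 (Noxa), a BH3-only protein, by 1.40 ± 0.19. Perp, a membrane protein linked to p53-dependent death, rose by at least 1.26 ± 0.24. Outside the p53 targets, 0 of 15 pro-death BCL2 family and caspase genes and 0 of 13 pro-survival genes were called in either direction, with medians of -0.13 and -0.01. The number of rises in the p53 apoptosis list was 5 without irradiated pool 2.

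Among p53 targets in DNA repair and nucleotide supply, 4 of 13 rose and 0 fell, with a median of 0.26. Polk, the translesion polymerase kappa, read 8.94 and 8.73 in irradiated cells against 5.51 and 6.25 in unirradiated cells and rose by 2.96 ± 0.22 (adjusted p = 0.000322). Slc19a2, a thiamine transporter, read 7.72 and 7.87 in irradiated cells against 5.39 and 5.52 in unirradiated cells and rose by 2.34 ± 0.17 (adjusted p = 0.000322). Ercc5, the XPG nuclease of nucleotide excision repair, read 8.81 and 8.96 in irradiated cells against 6.75 and 6.71 in unirradiated cells and rose by 2.15 ± 0.17 (adjusted p = 0.000421). The groups of these 3 genes did not overlap, which held for all 353 called rows with 1 symbol. Dcxr, a dicarbonyl and xylulose reductase, rose by 1.22 ± 0.15, a call lost without irradiated pool 2 (adjusted p = 0.0588). Of 44 double-strand break, checkpoint and Fanconi genes, 2 rose and 0 fell (4.55% called, against 1.59% of all rows). Among them was Chek2, the checkpoint kinase 2 (0.88 ± 0.15). Of 34 base excision repair and PARP family genes, 0 rose and 1 fell (2.94% called, against 1.59% of all rows). The gene that fell was the ADP-ribosyltransferase gene Tiparp (-1.54 ± 0.27, adjusted p = 0.0288). Parp1, the main enzyme of poly(ADP-ribose) synthesis, read 8.52 and 8.51 in irradiated cells against 8.65 and 8.36 in unirradiated cells, a change of 0.01 ± 0.14 (adjusted p = 0.99). Chek2 lost its call without either irradiated pool or unirradiated pool 1 (adjusted p up to 0.142), and Tiparp without either irradiated pool, unirradiated pool 1 or either irradiated WT pool (up to 0.195).

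Immune surface genes gave some of the largest changes. Of 24 measured ligands and receptors, 5 rose and 1 fell. Tnfsf4, the OX40 ligand that costimulates T cells, read 8.43 and 8.36 in irradiated cells against 4.44 and 4.38 in unirradiated cells. This was the largest rise under the naming rule, at least 3.99 ± 0.16 (adjusted p = 2.27e-05), with unirradiated pools below their array medians. Cd80, the B7 costimulatory ligand, read 7.68 and 7.86 in irradiated cells against 4.55 and 4.08 in unirradiated cells and rose by at least 3.46 ± 0.19 (adjusted p = 0.000135). A further Cd80 row rose by 1.70 (adjusted p = 0.0169). Cd55, a complement regulator, read 8.86 and 8.85 in irradiated cells against 6.47 and 7.19 in unirradiated cells and rose by 2.02 ± 0.21 (adjusted p = 0.0019). Cd200r1, an inhibitory receptor, and H60b, a ligand of the NK receptor NKG2D, rose by at least 1.53 ± 0.19 and 1.09 ± 0.14. The member that fell was Icam4, an adhesion molecule of red cells (-0.89 ± 0.15), and the count of falls was 0 without either irradiated pool or unirradiated pool 1. Tnfrsf18 (GITR), a costimulatory receptor not in that list, read 7.67 and 8.34 in irradiated cells against 5.03 and 5.16 in unirradiated cells and rose by 2.91 ± 0.25 (adjusted p = 0.000742).

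In the NF-kappaB list, 3 of 33 genes rose and 0 fell, and the median was -0.01. Tnip3, which binds the NF-kappaB inhibitor A20, read 8.24 and 7.68 in irradiated cells against 5.24 and 3.82 in unirradiated cells and rose by 3.43 ± 0.38 (adjusted p = 0.00313), with unirradiated pool 2 below its array median. The kinase gene Ikbke and the adhesion gene Icam1 rose by 1.05 ± 0.17 and 0.76 ± 0.13. Tnfaip3, which encodes A20, and the chemokine gene Ccl3 were not called, with changes of -1.44 ± 0.38 and -2.19 ± 0.57 (adjusted p = 0.129 and 0.13 in limma). The count of rises was 1 without irradiated pool 1 or unirradiated pool 1, and 3 genes of the list were called lower without unirradiated pool 2. Of 36 interferon-stimulated genes, 5 rose and 0 fell, with a median of 0.27 and 29 changes above 0. Mx1, of a family of antiviral dynamin-like GTPases, read 6.33 and 6.06 in irradiated cells against 4.09 and 3.89 in unirradiated cells. Its transcript level rose by at least 2.21 ± 0.15 (adjusted p = 0.000226 in limma). Its paralogue Mx2 read 6.00 and 6.65 in irradiated cells against 4.01 and 4.29 in unirradiated cells and rose by at least 2.18 ± 0.23 (adjusted p = 0.00233), and similar paralogues may share probes. Tap1, a peptide transporter of antigen presentation, rose by 1.25 ± 0.14, Usp18, which removes the ubiquitin-like ISG15, by 1.05 ± 0.14, and Ifit1, an antiviral RNA-binding protein, by at least 0.99 ± 0.18. The count of rises was 3 without irradiated pool 2 or unirradiated pool 1, and Usp18 lost its call without either irradiated pool or unirradiated pool 1 (adjusted p up to 0.0632).

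Other genes among the largest rises belong to none of these groups. Prrg4, a transmembrane Gla-domain protein, read 9.30 and 9.16 in irradiated cells against 5.48 and 5.15 in unirradiated cells and rose by 3.92 ± 0.23 (adjusted p = 0.000147). Mybl1, the transcription factor A-MYB, read 8.35 and 8.06 in irradiated cells against 4.83 and 5.02 in unirradiated cells and rose by 3.28 ± 0.14 (adjusted p = 2.55e-05). Plod2, a collagen lysyl hydroxylase, read 7.09 and 7.28 in irradiated cells against 4.74 and 4.08 in unirradiated cells and rose by at least 2.78 ± 0.20 (adjusted p = 0.000322). All 3 were named among rows whose groups do not overlap.

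Immediate early genes, which cells transcribe within minutes of a stimulus, read lower after irradiation. Of 35 measured, 0 rose and 6 fell (17.1% called), the median was -0.74, and 33 of the 35 changes were below 0. Fosb, an AP-1 subunit, read 4.90 and 6.42 in irradiated cells against 9.41 and 8.90 in unirradiated cells. The irradiated pools differed among themselves but both lay below the unirradiated ones, and Fosb fell by 3.49 log2 units (SE 0.44, adjusted p = 0.00579). Klf6, a zinc-finger transcription factor, read 5.40 and 5.48 in irradiated cells against 8.91 and 7.81 in unirradiated cells, a change of -2.92 ± 0.33 (adjusted p = 0.00324). Dusp1, a phosphatase that switches off MAP kinases, read 6.54 and 7.25 in irradiated cells against 9.14 and 8.74 in unirradiated cells (-2.05 ± 0.24, adjusted p = 0.00372). Rgs2, which shortens G protein signals, read 7.27 and 7.25 in irradiated cells against 9.59 and 8.98 in unirradiated cells (-2.03 ± 0.30, adjusted p = 0.0124). These 4 genes were named among rows whose groups do not overlap. Fos fell by 1.66 (SE 0.20) and Myc by 1.12 (SE 0.18). Jun, the AP-1 partner of Fos, read 7.39 and 8.73 in irradiated cells against 10.06 and 9.50 in unirradiated cells and was not called (-1.72 ± 0.38, adjusted p = 0.0726). Unirradiated pool 1 had the higher level for Fosb, Klf6, Dusp1, Rgs2, Fos and Jun. The list's mean level was 5.58 and 5.87 in irradiated cells against 6.94 and 6.36 in unirradiated cells. The count of falls was 4 without irradiated pool 1 or unirradiated pool 1 and 8 without unirradiated pool 2, and the median moved to -0.43 without unirradiated pool 1. Rgs2 lost its call without either irradiated pool or unirradiated pool 1 (adjusted p up to 0.0978), and Fos without irradiated pool 1 (adjusted p = 0.0557).

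Genes of mitosis were lower after irradiation. Of 55 measured genes of mitosis and the G2/M transition, 15 fell and 0 rose (27.3% called), 52 changes were below 0, and the median was -0.59. Aspm, a spindle pole protein, read 5.54 and 6.18 in irradiated cells against 7.30 and 7.59 in unirradiated cells (-1.58 ± 0.23, adjusted p = 0.0123). Plk1, the kinase that drives mitotic entry, read 5.83 and 5.94 in irradiated cells against 7.49 and 7.43 in unirradiated cells (-1.58 ± 0.23, adjusted p = 0.0116). Aurka, the aurora kinase of the centrosome, read 6.71 and 7.07 in irradiated cells against 8.39 and 8.36 in unirradiated cells (-1.48 ± 0.15, adjusted p = 0.0018). Aspm, Plk1 and Aurka had groups that did not overlap, as did all called rows with 1 symbol, which adds nothing to their calls. Cenpf, a kinetochore protein, read 6.79 and 7.03 in irradiated cells against 8.24 and 8.22 in unirradiated cells (-1.32 ± 0.13, adjusted p = 0.00152). Prc1, which bundles the central spindle, fell by 1.20 (SE 0.16), and the kinesins Kif4 and Kif23 by 1.18 (SE 0.16) and 1.13 (SE 0.15). Hmmr, a spindle protein that binds hyaluronan, fell by 1.13 (SE 0.17). The other members called were Anln, Cdc25c, Tpx2, Kif22, Cdc20, Dlgap5 and Ect2, with changes of -0.95 to -0.65. Plk1 and Plk2, kinases of 1 family, moved in opposite directions. Birc5 (survivin), a mitotic gene counted with the inhibitors of apoptosis, read 8.52 and 8.78 in irradiated cells against 9.13 and 9.21 in unirradiated cells and was not called (-0.52 ± 0.17, adjusted p = 0.231). The count of falls was 4 without irradiated pool 1, and 5 without irradiated pool 2 or either unirradiated pool, while the median stayed between -0.64 and -0.55. It was 5 in a fit of 16 arrays and 2 in a fit that included rows without a symbol, with the same median as the main fit. Plk1 lost its call without any 1 of the 4 Parp-2-/- arrays (adjusted p up to 0.0902) and Aspm without irradiated pool 1 or unirradiated pool 2 (up to 0.0781).

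Many mitotic promoters hold a cell cycle genes homology region (CHR, searched as TTTGAA) near the start and CCAAT boxes upstream, the sites read by the MuvB and NF-Y complexes. On both strands, TTTGAA was found in all 12 of the 15 called mitotic genes that had a promoter window, in 33 of 45 measured mitotic genes with a window (73.3%), and in 20.2% of 27025 genes. CCAAT was found in 11 of the 12, in 35 of the 45 (77.8%) and in 41.1% of all genes. Of all genes called lower, 23 of 75 with a window held TTTGAA (30.7%), and these 23 include the 12 called mitotic genes. The share was 14.9% of genes called higher (29 of 195) and 17.3% of tested genes with a window (2698 of 15613). The differences between these shares were not tested. The 2 motifs share no bases in the stretches shown. These run from 100 bases before to 20 bases after the start in the 5 largest mitotic falls whose TTTGAA lies within them, with both motifs in capitals on either strand (CCAAT reads ATTGG on the other): Aspm at chr1:139454673-139454792 on the plus strand, Cenpf at chr1:189688067-189688186 on the minus strand, Prc1 at chr7:80294351-80294470 on the plus strand, Kif23 at chr9:61946780-61946899 on the minus strand and Hmmr at chr11:40733418-40733537 on the minus strand. TTTGAA spans positions 7 to 12 of the Aspm transcript, 3 to 8 in Cenpf and Kif23, -5 to 1 in Prc1 and 9 to 14 in Hmmr, where 1 is the first transcribed base and -1 the base before it. In Plk1 and Aurka it began at 31 and 33.
Aspm: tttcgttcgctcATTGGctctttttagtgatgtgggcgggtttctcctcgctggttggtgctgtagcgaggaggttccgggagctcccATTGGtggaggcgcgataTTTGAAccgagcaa
Cenpf: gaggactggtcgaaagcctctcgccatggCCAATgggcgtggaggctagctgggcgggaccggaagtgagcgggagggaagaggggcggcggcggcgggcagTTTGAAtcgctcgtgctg
Prc1: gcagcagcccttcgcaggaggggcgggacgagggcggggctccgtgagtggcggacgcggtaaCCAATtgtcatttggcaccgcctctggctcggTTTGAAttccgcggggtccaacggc
Kif23: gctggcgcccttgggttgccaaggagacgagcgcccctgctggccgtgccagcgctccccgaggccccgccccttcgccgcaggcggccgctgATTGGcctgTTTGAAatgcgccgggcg
Hmmr: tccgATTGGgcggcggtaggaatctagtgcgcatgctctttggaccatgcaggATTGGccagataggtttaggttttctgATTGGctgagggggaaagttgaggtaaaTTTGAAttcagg

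**Figure D2:**
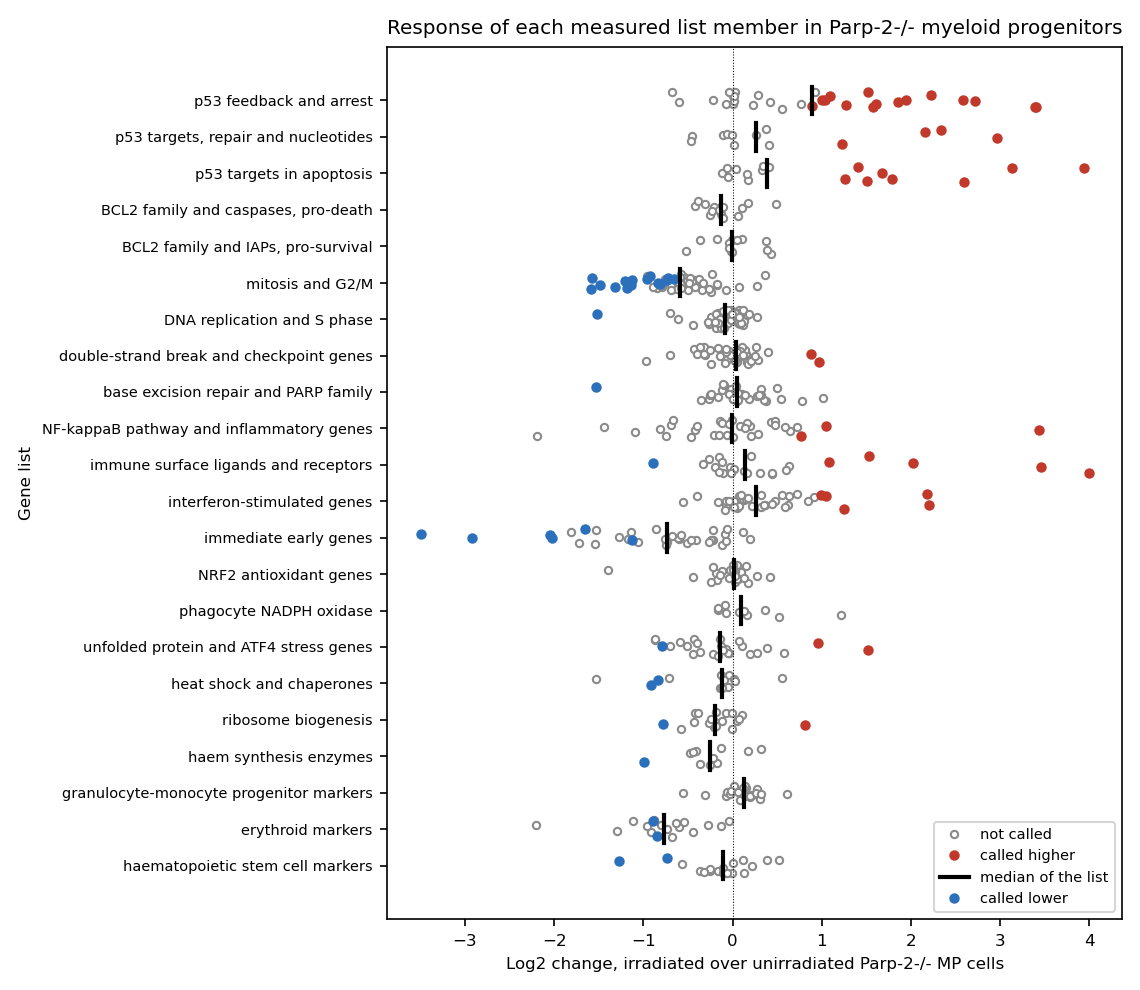
Log2 change (irradiated over unirradiated Parp-2-/- MP cells) of each measured member of the response lists and of 3 marker lists; filled points are called (red higher, blue lower), open points are not, and black bars are list medians. The 3 p53 lists hold 27 red points and 0 blue ones, while called points of the mitosis and immediate early lists are all at the left, around medians of -0.59 and -0.74.

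Of 50 measured genes of DNA replication and S phase, 0 rose and 1 fell (2% called, near the 1.59% of all rows), with a median of -0.08. The gene that fell was Ccne1, the cyclin of the G1/S transition, which read 6.32 and 5.99 in irradiated cells against 7.67 and 7.68 in unirradiated cells (-1.52 ± 0.28, adjusted p = 0.034). This call was lost without any 1 of the 4 Parp-2-/- arrays or either irradiated WT array (adjusted p up to 0.216). A pair of histone genes was among the largest falls: H2bc4 (-1.91 ± 0.23, adjusted p = 0.00434) and H1f2 (-1.60 ± 0.22, adjusted p = 0.00976). Histone genes have near-identical copies, so these rows may hold signal of several genes, and H1f2 lost its call without irradiated pool 1 or unirradiated pool 1 (adjusted p up to 0.0693). Aqp9, a water and glycerol channel, read 6.31 and 6.40 in irradiated cells against 7.91 and 8.18 in unirradiated cells and fell by 1.69 (SE 0.19, adjusted p = 0.003).

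Lineage markers describe the mix of progenitors on these arrays. Of 18 measured erythroid genes, 2 fell and 0 rose, yet all 18 changes were below 0 and the median was -0.77. The mean level of the list was 6.18 and 6.61 in irradiated cells against 6.99 and 7.35 in unirradiated cells. The members called were Icam4 and Epor, the erythropoietin receptor (-0.85 ± 0.16, adjusted p = 0.036). The erythroid master regulator Gata1 read 5.65 and 5.85 in irradiated cells against 6.54 and 7.19 in unirradiated cells, a change of -1.12 ± 0.29 (adjusted p = 0.125). Klf1, an erythroid transcription factor, had a difference of -0.88 ± 0.39 (adjusted p = 0.435). The number of erythroid falls was 0 without either irradiated pool or unirradiated pool 1, 1 without unirradiated pool 2 or either irradiated WT pool, and 7 without either unirradiated WT pool, so the 2 calls rest on the set of arrays. Tfrc, the transferrin receptor that brings in iron, was the 1 gene of 11 in the haem synthesis list that fell (-0.99 ± 0.17), a call lost without either irradiated pool or unirradiated pool 2 (adjusted p up to 0.13). Of 22 granulocyte and monocyte progenitor markers 0 were called, with a median of 0.13, and Mpo, Elane and Cebpa differed by 0.01 ± 0.13, 0.03 ± 0.19 and 0.20 ± 0.27. Of 19 stem cell markers, 2 fell: Gfi1b, a repressor also used in the erythroid and megakaryocyte lineages (-1.28 ± 0.15, adjusted p = 0.00353), and Gata2 (-0.74 ± 0.13), whose call was lost without any 1 of the 4 Parp-2-/- arrays or either irradiated WT array. limma called 0 genes in the lists of lymphoid priming, megakaryocyte, mast cell, mature neutrophil, macrophage and dendritic, B, T and NK, and stromal markers (0 of 13, 11, 13, 13, 18, 12, 15 and 12). Whether a change in cell mix has a part in the changes above was not tested.

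The comparison with WT MP cells asks whether the response depended on Parp-2. In WT MP cells 390 rows were called (1.7%), 307 higher (1.34%) and 83 lower (0.361%). Both genotypes shared 238 called rows, all in 1 direction, which is 65.2% of the Parp-2-/- calls and 61% of the WT calls. Of the 365 Parp-2-/- calls, 362 had the same sign in WT, and the median size of their changes was 1.06 in Parp-2-/- and 1.03 in WT cells. Of the 127 rows called in Parp-2-/- cells and not in WT cells, 102 had an unadjusted p under 0.05 in WT cells. Across the 517 rows called in either genotype, the changes correlated at 0.924 (0.677 over all rows), a description across genes that share normalisation and are not independent. Among the lists there were 15 and 15 rises in p53 feedback and arrest, 8 and 8 in p53 apoptosis, 5 and 7 among interferon-stimulated genes, and 15 and 15 mitotic falls in Parp-2-/- and WT cells. Their medians were 0.89 and 0.85, 0.38 and 0.69, 0.27 and 0.50, and -0.59 and -0.59. Immediate early genes had 6 falls and a median of -0.74 in Parp-2-/- cells and 4 falls and a median of -0.56 in WT cells. Erythroid genes had 2 falls and a median of -0.77 in Parp-2-/- cells and 4 falls and a median of -0.86 in WT cells. Base excision repair and PARP family genes had 0 rises and 1 fall in Parp-2-/- cells and 3 rises and 0 falls in WT cells. Their medians were 0.05 and 0.10, and the median difference between the responses of a gene was -0.008. Heat shock genes had 2 falls in Parp-2-/- cells and 0 in WT cells, with medians of -0.12 and -0.06. The differences between these counts and medians were not tested.

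**Figure D3:**
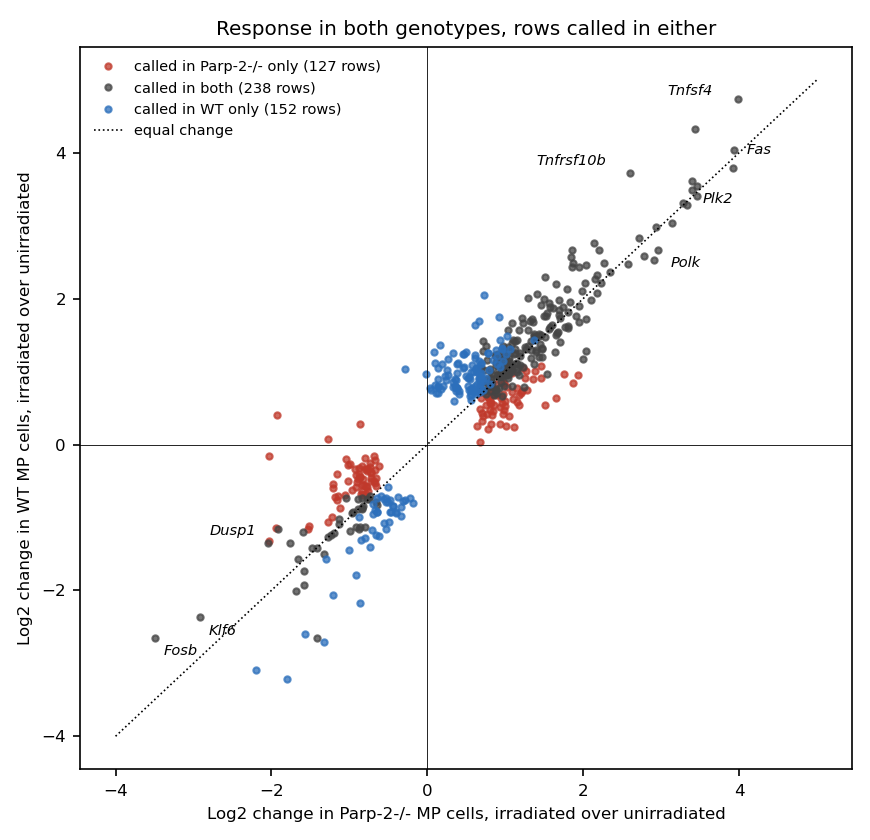
Log2 change after irradiation in Parp-2-/- MP cells (horizontal axis) against WT MP cells (vertical axis) for the 517 rows called in either genotype; dark points are called in both (238), red in Parp-2-/- only (127) and blue in WT only (152), and the dotted line marks equal change. Points run along the dotted line, with Tnfrsf10b (2.60 in Parp-2-/- cells, at least 3.72 in WT cells) above it.

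The difference between the responses was tested directly, as the genotype by irradiation interaction. limma called 0 of 22961 rows (0%), with a smallest adjusted p of 0.9999. An unadjusted p under 0.05 was found for 708 rows (3.08%), of which 349 had the Parp-2-/- response above the WT response (1.52%) and 359 had it below (1.56%). The median standard error of this difference was 0.21 log2 units, so a missed call does not show equal responses. The 3 genes with the smallest p in each direction are given as values. Cyp39a1, an oxysterol hydroxylase, read 4.83 and 4.81 in irradiated and 5.55 and 5.82 in unirradiated Parp-2-/- cells, against 5.38 and 5.27 in irradiated and 5.14 and 4.94 in unirradiated WT cells. It fell in Parp-2-/- cells (-0.86 ± 0.14, adjusted p = 0.0191) and was not called in WT cells (0.28, adjusted p = 0.466), a difference of -1.15 ± 0.20 (unadjusted p = 0.00027). The irradiated Parp-2-/- levels lay just above their array medians of 4.80 and 4.78, and unirradiated WT pool 2 just above its median of 4.84. The sizes of these Cyp39a1 changes were thus measured close to background. Tnfrsf10b read 7.34 and 7.31 in irradiated and 4.63 and 4.82 in unirradiated Parp-2-/- cells, against 7.76 and 7.98 in irradiated and 3.96 and 4.33 in unirradiated WT cells. Both unirradiated WT pools and 1 unirradiated Parp-2-/- pool lay below their array medians, so the WT rise is at least 3.72 and the fitted difference of -1.12 ± 0.22 (unadjusted p = 0.00073) has no settled size. Sco1, a copper chaperone of cytochrome c oxidase, had a response of -0.29 in Parp-2-/- cells (not called) and 1.04 in WT cells, a difference of -1.33 ± 0.27. In the other direction, Milr1, an inhibitory receptor of mast cells, differed by 0.99 ± 0.21, Lhfpl3, a tetraspan membrane protein, by 0.92 ± 0.24 and the zinc-finger gene Zfp459 by 1.15 ± 0.30. Zfp459 lay below the array medians on all 8 MP arrays and Lhfpl3 on 6 of the 8, so neither difference was measured above background. The rises of Tnfsf4 were at least 3.99 in Parp-2-/- cells and at least 4.73 in WT cells, and no size is given for their difference. The same test gave Pmaip1 a difference of -0.66 ± 0.26 (1.40 in Parp-2-/- cells, 2.07 in WT cells). Without irradiated Parp-2-/- pool 1, and likewise without unirradiated WT pool 1, the test called 1 row.

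The comparison with Parp-2-/- LSK cells asks whether the response depended on the cell type. The cell type by irradiation interaction, fitted on all 16 arrays, called 0 rows in limma (0%), with a smallest adjusted p of 0.208 and 1230 rows (5.36%) under an unadjusted p of 0.05. Its median standard error was 0.29 log2 units. The genes with the smallest p are again values only. Tmem19, a membrane protein, read 6.73 and 6.65 in irradiated and 4.81 and 4.57 in unirradiated Parp-2-/- MP cells, against 5.02 and 4.72 in irradiated and 4.72 and 4.73 in unirradiated Parp-2-/- LSK cells. It rose by 2.00 in MP cells, where 1 unirradiated pool lay below its array median. In LSK cells 3 of the 4 pools lay below their array medians, so the fitted response of 0.15 there and the difference of 1.85 ± 0.26 (adjusted p = 0.208) have no settled size. Slc19a2 had like irradiated levels (7.72 and 7.87 in MP cells, 8.02 and 7.91 in LSK cells) but lay apart in its unirradiated levels (5.39 and 5.52 in MP cells, 3.81 and 3.31 in LSK cells), with both unirradiated LSK pools below their array medians. Its change was 2.34 in MP cells and at least 4.40 in LSK cells, a fitted difference of -2.06 ± 0.33 (adjusted p = 0.208). Plpp1, a lipid phosphatase, fell in MP cells to below the array medians (-1.21 ± 0.16) and lay below them on all 4 LSK arrays. Zfp61 had a response of 0.24 in MP cells and -1.55 in LSK cells, where both irradiated pools lay below their array medians. Mcoln2 lay below the array medians on all 4 MP arrays and had a response of -2.08 in LSK cells. Dmac2, a mitochondrial assembly factor, had a response of -0.31 in MP cells and 1.38 in LSK cells. Among the largest MP rises, Tnfrsf18 (2.91 in MP cells, 0.75 in LSK cells), Cd80 (3.46 in MP cells, 1.87 in LSK cells) and Plk2 (3.40 in MP cells, 0.90 in LSK cells) had interaction adjusted p-values of 0.463, 0.463 and 0.672. Unirradiated Cd80 lay below the array medians in both cell types. Plk2 had like irradiated levels (8.56 and 8.91 in MP cells, 8.43 and 8.66 in LSK cells). Its unirradiated levels lay apart (6.26 and 4.42 in MP cells, 8.17 and 7.13 in LSK cells), with unirradiated MP pool 2 below its array median. The test called 10 rows without irradiated LSK pool 1 or unirradiated LSK pool 1, and 4 without irradiated LSK pool 2.

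**Figure D4:**
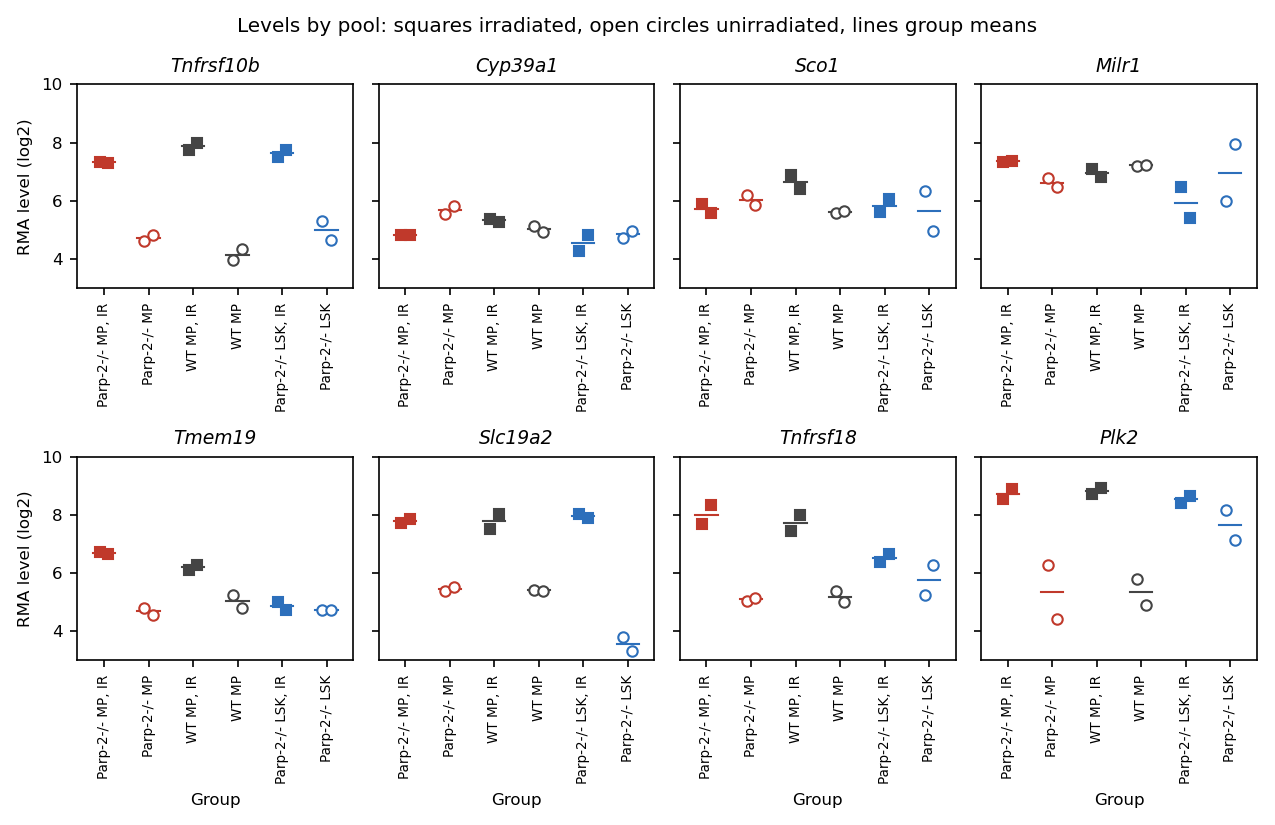
RMA levels (log2, vertical axis) of 8 genes in each pool of irradiated (filled squares) and unirradiated (open circles) Parp-2-/- MP, WT MP and Parp-2-/- LSK cells; lines are group means. Tnfrsf10b is lower in irradiated Parp-2-/- than irradiated WT MP cells, and unirradiated Slc19a2 is lower in LSK (3.81 and 3.31) than in MP cells (5.39 and 5.52).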

How the data were processed

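RNA of 16 sorted bone marrow pools was measured on Affymetrix Mouse Gene 1.0 ST arrays. The authors deposited log2 values, made with RMA per the submitters' processing notes, which also name limma, affy 2.10 and R 2.15 without their order; the log base was read from the values. They were used as deposited. Symbols came from the platform annotation: 21640 of 34760 rows carried 1 symbol, 1321 several and 11799 none, and the 22961 with at least 1 symbol were tested. Apart from the shared Cdkn1a row, genes are named from rows with 1 symbol, and a gene's row with the highest mean stands for it. limma 3.58.1 in R 4.3.3 fitted 4 group means over the 8 MP arrays (4 residual and 5.02 prior degrees of freedom), or 8 group means over 16 arrays for the cell type interaction, with two-sided moderated tests and Benjamini-Hochberg adjustment over all tested rows. Changes are log2 units ± standard error with 2 pools a group. The script was tested on simulated data. The members and the 30 gene lists (664 of 718 genes matched a row) were chosen with earlier results of these data known. Named are Parp2 and Parp1, the 15 largest rises and 10 largest falls among called genes whose groups do not overlap (predicted genes, small RNAs, olfactory and vomeronasal receptors and antigen receptor segments skipped), up to 4 members per list with the largest change, and the 3 smallest p-values per direction of each interaction. Further list members and examples were chosen after their values were seen. The labels give no scan or labelling batch. Pool numbers were checked for pairing: deviations of irradiated and unirradiated Parp-2-/- pools of 1 number correlated at -0.03, so the pools were not paired. The highest such correlation between MP groups was 0.227, of irradiated Parp-2-/- and unirradiated WT pools. Motifs were searched in 32851 RefSeq promoter windows (GRCm38.p6). A gene called in the double-strand break list is not reported here.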

Additional observations from a re-analysis of the deposited data

Results flagged for a closer look

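Rows without a gene symbol were left out of the tests above. In a fit on all rows, 12 of these 11799 rows were called higher after irradiation in Parp-2-/- MP cells and 4 were called lower. The largest rise was 3.29 log2 units and the largest fall -2.11. They were noticed as a signal in rows outside the main measurement, and what they measure is not known here.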

How the results depend on the processing

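With 2 pools a group the counts of calls depended on the arrays and rows in the fit. The Parp-2-/- MP response called 135 rows in the fit of 16 arrays (134 shared with the 365), 104 when rows without a symbol were included (88 shared), and 116 to 418 when 1 array was left out. Rows called lower numbered 19 of the 135 and 12 of the 104, against 100 of the 365, and rows called higher 116 and 92, against 265. The WT MP response called 154 and 132 in those fits and 112 to 474 with 1 array left out. Further quantile normalisation (352), a common median (342), rows above the median level (384), an intensity trend (325), robust moderation (367) and the 4 arrays alone (286) stayed within 1.5 times. The genotype interaction called 0 to 1 rows and the cell type interaction 0 to 10 with 1 array left out, and 0 under every other setting run. The replicate block (pool number) gave 431 calls, 356 of them shared, 514 in WT cells, and 0 in both interactions. The labels do not say what pools of 1 number share beyond it. Of 50 called genes under the naming rule, 25 stayed called in all 17 settings, 31 in all 8 leave-one-out fits, and 0 turned sign. Parp1, not called, turned to -0.006418 with a common median and ranged from -0.1305 to 0.1573 with 1 array left out. Parp2, also not called, ranged from -0.3504 to 0.01939. Both changes turned sign without unirradiated pool 2, where unirradiated pool 1 is the only reference. Why the unirradiated pools differed was not tested.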

Other observations

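Stress programmes outside the p53 lists moved in few genes. Of 26 genes of the unfolded protein and ATF4 lists, 2 rose and 1 fell: Sesn2, which is also a p53 target, Ddit4, an mTOR inhibitor (0.96 ± 0.12, adjusted p = 0.0064, and up to 0.0599 without irradiated pool 2 or unirradiated pool 2), and Dnajb9, a chaperone of the endoplasmic reticulum (-0.79 ± 0.16). Of 13 heat shock genes, 2 fell, the cochaperones Bag3 (-0.91 ± 0.17) and Dnajb1 (-0.84 ± 0.15). Both lost their calls without either irradiated Parp-2-/- pool, unirradiated Parp-2-/- pool 1 or either irradiated WT pool. Dnajb1 also lost its call without unirradiated Parp-2-/- pool 2. Of 20 ribosome biogenesis genes, Utp20 rose (0.81 ± 0.11) and Nop2 fell (-0.78 ± 0.13), each losing its call without any 1 of the 4 Parp-2-/- arrays. limma called 0 of 24 NRF2 antioxidant genes and 0 of 10 phagocyte NADPH oxidase genes; Cybb, the catalytic subunit of the oxidase, read 8.43 and 8.12 in irradiated cells against 7.05 and 7.06 in unirradiated cells (1.22 ± 0.27, adjusted p = 0.0733). The row of Mir142, a microRNA gene of blood cells named after its values were seen, read 4.05 on average in irradiated cells, below the array medians, against 5.81 in unirradiated cells (-1.76 ± 0.21, adjusted p = 0.00458).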
